A study of Mus musculus with 10 samples.

Results

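The gene segments of the T cell receptor beta chain were examined in RNA-seq libraries of mouse TH2 cultures from vitamin D-deficient and control mice. The members were all rows of the count table whose Ensembl ID carries a symbol starting with Trbv, Trbd, Trbj or Trbc in the GENCODE annotation of GRCm38. This rule found 53 of the 49671 rows: 35 variable (V), 2 diversity (D), 14 joining (J) and 2 constant (C) segments. The annotation gives 22 of the V segments and 13 of the J segments as functional and the other 13 V and 1 J as pseudogenes. The members lie on chromosome 6 between position 40891229, where Trbv1 starts, and position 41558452, the outer end of Trbv31. Trbv31 lies on the minus strand beyond the constant segments, and the other members lie before it in the order V, then D1, J1 and C1, then D2, J2 and C2.

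Naive CD4+ T cells of wild-type C57BL/6 mice had been polarised in culture to TH2 cells, the helper cells that make interleukin 4, and were harvested on day 5. The deficient group (7 libraries, 5 in batch 1 and 2 in batch 2, as the labels number the batches) came from mice bred and reared without ultraviolet light on TD97340, a diet that lacks vitamin D metabolites. The control group (3 libraries, 2 in batch 1 and 1 in batch 2) came from mice on a standard diet, which held vitamin D3 at 400 IU per kg. The mice were offspring of the second generation on these diets, and the labels name no other treatment, so vitamin D supply is the stated contrast. Rearing without ultraviolet light is given here for the deficient group. Any difference between the groups in light, in the rest of the diet or in breeding could not be told apart from vitamin D supply. The strain of each group is taken from the labels and was not tested, and a difference in strain between the groups could not be told apart from diet in any comparison below. Whether each library had its own mouse is not in the labels, and p-values measure only the spread between these libraries, which may be technical.

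A T cell receptor beta chain is built in the thymus when a developing T cell joins 1 D segment to 1 J segment and then 1 V segment to that product. Each mature T cell therefore carries mainly 1 V segment in its beta chain RNA, and the mix of V segments in a culture reflects the mix of cells in it. The V segment encodes most of the outer domain of the chain, the end of V with D and J encodes the loop that contacts the peptide (CDR3), and the C segment encodes the stem, the membrane anchor and the short tail. In mice, superantigens encoded by endogenous retroviruses are known to delete thymocytes according to the V segment of their beta chain, in strains whose MHC class II presents them. In bulk RNA, fewer cells that carry a segment and less RNA of it per cell cannot be told apart.

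The 3′ ends of 12 V segments are shown first, since the counts of these segments moved most between the diets. Each line gives the last 60 coding bases before the joining site, 5′ to 3′ from GENCODE transcripts on GRCm38, all on the plus strand, and the capitals mark the codon of the conserved cysteine at which CDR3 begins. The first 6 had the largest rises in the deficient libraries and Trbv12-2 a smaller rise, and the last 5 fell both as a share of V counts and in level.
Trbv26 (chr6:41227934-41227993): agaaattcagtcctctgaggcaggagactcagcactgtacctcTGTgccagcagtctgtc
Trbv15 (chr6:41141599-41141658): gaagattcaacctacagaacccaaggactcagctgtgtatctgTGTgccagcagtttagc
Trbv23 (chr6:41216467-41216526): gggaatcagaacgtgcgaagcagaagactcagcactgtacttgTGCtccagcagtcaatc
Trbv16 (chr6:41152171-41152230): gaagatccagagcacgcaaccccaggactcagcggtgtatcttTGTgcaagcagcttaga
Trbv3 (chr6:41048769-41048828): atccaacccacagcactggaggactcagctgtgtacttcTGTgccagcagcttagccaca
Trbv12-1 (chr6:41114008-41114067): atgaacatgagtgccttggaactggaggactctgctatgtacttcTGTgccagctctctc
Trbv12-2 (chr6:41119305-41119364): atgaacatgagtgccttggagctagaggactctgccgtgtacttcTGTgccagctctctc
Trbv20 (chr6:41188918-41188977): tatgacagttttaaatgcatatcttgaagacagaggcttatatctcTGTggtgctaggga
Trbv13-1 (chr6:41116409-41116468): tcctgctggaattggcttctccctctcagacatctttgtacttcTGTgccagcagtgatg
Trbv13-3 (chr6:41130526-41130585): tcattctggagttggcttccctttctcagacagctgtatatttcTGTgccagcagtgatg
Trbv29 (chr6:41271822-41271881): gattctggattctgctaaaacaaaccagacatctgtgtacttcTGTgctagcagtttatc
Trbv19 (chr6:41178989-41179048): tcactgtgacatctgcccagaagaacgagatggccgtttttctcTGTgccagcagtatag

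The 6 segments with the largest rises are not a sequence family. Their pairwise coding identity ran from 50.3% to 72.6%, against 44.1% to 90.6% over all 22 functional V segments, and their GC content from 40.2% to 49.9%, against 40.2% to 54.0%. The 5 segments that fell had identities from 45.4% to 85.3% and a GC content from 41.8% to 50.7%. Among the members in their order along the locus, the 6 lie between places 3 and 30 and the 5 between places 13 and 33, so both sets are interspersed. For Trbv26, which moved most, the coding part of the last exon (298 bases) is given whole, with the same codon in capitals.
Trbv26 (chr6:41227696-41227993): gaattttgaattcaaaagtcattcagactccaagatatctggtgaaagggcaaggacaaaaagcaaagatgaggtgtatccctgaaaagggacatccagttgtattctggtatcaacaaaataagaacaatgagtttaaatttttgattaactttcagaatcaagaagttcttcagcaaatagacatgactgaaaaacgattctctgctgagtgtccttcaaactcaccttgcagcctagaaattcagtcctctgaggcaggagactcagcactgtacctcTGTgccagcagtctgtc
No stretch of 50 bases of Trbv26 occurs in another annotated gene's transcripts. The same held for the other V segments shown except Trbv12-2, which shares 1.19% of its stretches with Trbv12-3, and Trbv13-3, which shares 0.344% with Trbv13-2. Trbv12-1 and Trbv12-2 are 88.2% identical, and Trbv13-2 and Trbv13-3 are 90.6% identical.

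The libraries held 5800698 to 6462146 counts in the control group and 7029207 to 13433276 in the deficient group. All Trb rows together took 0.0808% ± 0.00169 (SD, n = 3) of control counts and 0.0838% ± 0.00293 (SD, n = 7) of deficient counts. The 35 V rows held 1210 to 1311 counts per control library and 1555 to 3304 per deficient library, so a V segment at 1% of them rests on few control reads. Reads carried no molecular identifiers that the labels name, so statements on depth cover counting error only. All 5 T cell markers (Cd3d, Cd3e, Cd3g, Trac and Cd4) were present in every library, but 4 of them were lower in deficient libraries, and their sum was 1602 to 1611 CPM (counts per 1000000 counts of the library) in control and 1006 to 1149 CPM in deficient libraries. Cd3d, at 286 ± 12.7 CPM (SD, n = 3) and 278 ± 8.85 CPM (SD, n = 7), was the 1 not called. The 5 TH2 markers split: Gata3, the lineage's transcription factor (log2 -0.84), and Ccr4, a chemokine receptor (log2 -1.07), were lower, the cytokines Il13 (log2 1.21) and Il5 (log2 0.84) were higher, and Il4 was not called (log2 0.05). The diets differed across the whole table: edgeR's quasi-likelihood test with batch as a term called 58.0% of 13699 tested genes at an adjusted p below 0.05, with 29.4% higher and 28.6% lower in deficient libraries, and DESeq2 called 55.7%.

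Of the 53 members, 38 passed the filter on low counts and were tested. On the level scale, 8 of the 38 were higher and 13 lower in deficient libraries, and the other 17 were not called. That is 21.1% higher and 34.2% lower of those tested, beside the 29.4% and 28.6% of all genes, and the median log2 change was -0.23, beside 0.02 over all genes. The 15 members that did not pass were all V segments. Trbv6, Trbv7, Trbv8, Trbv9, Trbv10, Trbv11 and Trbv27, all pseudogenes, had no count in any library, which allows a level of up to 0.0303 CPM (3 counts over all 10 libraries). The other 8 had between 1 and 28 counts over the 10 libraries, and among them the functional Trbv4, Trbv5 and Trbv21 had 3, 5 and 5 counts in the control group and 8, 13 and 20 in the deficient group. Trbv4 and Trbv5 overlap exons of the noncoding gene 5830405F06Rik, so their reads may have been left uncounted, depending on the strand and the counting mode.

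V segments were compared as shares of all Trbv counts in a library, which do not move with the amount of T cell RNA, and the test was edgeR with the Trbv total as the library size. In this fit 7 of 20 tested V segments (35.0%) had a higher share and 6 (30.0%) a lower share in deficient libraries. Scaled this way, 56.2% of all genes were called, 25.7% higher and 30.5% lower. Shares sum to 100%, so a large rise of some segments lowers the others. The rises were larger than the falls, with log2 changes up to 4.28 against falls down to -1.39.

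Trbv26 (ENSMUSG00000076479, Tcrb-V3 in the older naming) rose most. It took 0.41%, 0.16% and 0.31% of Trbv counts in the control libraries and 5.21%, 5.76%, 5.40%, 6.77%, 6.21%, 5.45% and 5.49% in the deficient libraries. The groups lie far apart, with the lowest deficient library well above the highest control library. The control values rest on 5, 2 and 4 counts, against 84 to 198 counts in the deficient libraries. The share rose 19.4-fold (log2 4.28, SE 0.256, edgeR adjusted p = 1.29e-09). On the level scale the rise was 20.2-fold (adjusted p = 2.0e-09). Counted per kilobase of exon, Trbv26 stood in place 19 among the V segments of control libraries (1.64 ± 0.739 CPM per kb) and in place 6 in deficient libraries (35.4 ± 4.07 CPM per kb).

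Trbv15 (Tcrb-V12) had shares of 0.74%, 0.39% and 0.76% in control and 5.25%, 5.56%, 4.50%, 5.68%, 4.94%, 4.66% and 5.54% in deficient libraries. Every deficient library was above every control library, and the share rose 8.10-fold (log2 3.02, SE 0.225, adjusted p = 1.63e-08). Trbv16 (Tcrb-V11) lies next to it in the locus. Its shares were 1.07%, 0.71% and 0.84% in control and 5.25%, 3.64%, 5.08%, 4.55%, 3.07%, 4.12% and 4.64% in deficient libraries. That is a rise of 4.92-fold (log2 2.30, SE 0.252, adjusted p = 1.19e-06), again with no overlap between the groups.

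Trbv3 (Tcrb-V16) became the largest of the risers. Its share was 1.65%, 2.60% and 2.82% in control and 10.93%, 12.23%, 10.68%, 10.43%, 10.20%, 10.32% and 9.97% in deficient libraries. The rise was 4.50-fold (log2 2.17, SE 0.160, adjusted p = 1.38e-08), and the deficient libraries sat close together except library 2. Per kilobase, Trbv3 was second only to Trbv1 in deficient libraries, at 53.0 ± 3.95 CPM per kb beside 61.6 ± 5.54 for Trbv1 (SD, n = 7).

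Trbv12-1 (Tcrb-V5.2) rose from shares of 0.74%, 0.87% and 1.22% to 2.75%, 2.90%, 2.96%, 3.22%, 2.79%, 2.78% and 3.06%. The change was 3.09-fold (log2 1.63, SE 0.212, adjusted p = 7.56e-06), with no overlap. Its near relative Trbv12-2 (Tcrb-V5.1) started higher, at 2.40%, 4.03% and 3.89%, and was at 5.28%, 4.95%, 4.05%, 5.13%, 4.41%, 4.54% and 5.01% in deficient libraries. Control library 2 and deficient library 3 almost touch, and the rise was only 1.39-fold (log2 0.48, SE 0.174, adjusted p = 0.0281). Without control library 1 the change in share was 0.27 (adjusted p = 0.214), and within batch 1 and batch 2 it was 0.57 (adjusted p = 0.0524) and 0.29 (adjusted p = 0.481), so the call on Trbv12-2 did not hold in these settings. Its level passed the test (log2 0.54, adjusted p = 0.00889), but not without control library 1 (adjusted p = 0.0702) or within batch 2 (adjusted p = 0.147). The pseudogene Trbv12-3 had 10 counts in control and 18 in deficient libraries and was not tested.

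Trbv23 (Tcrb-V20) was the rarest of the risers, at 0.17%, 0.16% and 0.08% in control and 0.88%, 0.77%, 1.03%, 0.82%, 0.81%, 0.58% and 0.47% in deficient libraries. The control values are 2, 2 and 1 counts. The share rose 5.45-fold (log2 2.45, SE 0.435, adjusted p = 0.000172). In batch 2 alone, where the control is a single library with 1 count, the change was 2.72 (adjusted p = 0.0935).

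Trbv20 (ENSMUSG00000076476, Tcrb-V15) fell most among the V segments. Its share was 11.74%, 11.68% and 13.65% in control and 4.18%, 4.38%, 4.69%, 4.24%, 5.44%, 5.54% and 4.17% in deficient libraries. It was 2.63-fold lower in deficient libraries (log2 -1.39, SE 0.125, adjusted p = 1.24e-07), and no library crossed over. Per kilobase it led the V segments in control libraries, at 75.5 ± 6.30 CPM per kb (SD, n = 3), followed by Trbv13-1 at 68.7 ± 13.6, whose SD is larger than the gap between them. In deficient libraries Trbv20 was at 31.5 ± 5.25 CPM per kb (SD, n = 7), in place 9, and its SD is larger than its gap to Trbv13-1 in place 5, at 36.1 ± 3.72.

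The Trbv13 family (the Tcrb-V8 family of older work) split. Trbv13-1 (Tcrb-V8.3) fell from shares of 14.21%, 12.79% and 9.76% to 5.10%, 5.86%, 6.88%, 5.92%, 6.04%, 5.54% and 5.65% (log2 -1.07, SE 0.120, adjusted p = 1.55e-06). Trbv13-3 (Tcrb-V8.1) fell from 3.55%, 2.76% and 4.35% to 1.98%, 1.52%, 2.19%, 1.54%, 1.66%, 1.57% and 1.85% (log2 -1.02, SE 0.195, adjusted p = 0.000334). The groups did not overlap for either of them. Trbv13-2 (Tcrb-V8.2) had a mean share of 7.56% ± 0.265 (SD, n = 3) in control and 7.11% ± 0.818 (SD, n = 7) in deficient libraries and was not called (log2 -0.09, SE 0.124, adjusted p = 0.566). The difference between Trbv13-2 and its relatives was not tested.

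Trbv29 (Tcrb-V7) fell from shares of 8.93%, 9.55% and 10.14% to 6.46%, 4.78%, 3.09%, 5.17%, 5.23%, 5.63% and 5.91% (log2 -0.86, SE 0.162, adjusted p = 0.000273). The deficient libraries spread over a wider range here than for most V segments. Trbv19 (Tcrb-V6) fell from 12.31%, 12.00% and 12.74% to 7.63%, 7.48%, 6.24%, 8.14%, 8.05%, 8.20% and 7.92% (log2 -0.68, SE 0.106, adjusted p = 4.99e-05). Trbv14 (Tcrb-V13) had shares of 3.14%, 2.29% and 2.90% in control and 1.83%, 1.68%, 1.41%, 1.47%, 2.12%, 2.36% and 2.43% in deficient libraries, which overlap. Its share passed the test (log2 -0.53, SE 0.198, edgeR adjusted p = 0.0315), but its level did not (adjusted p = 0.0559), nor did its share by DESeq2 (adjusted p = 0.0533) or without control library 1 (log2 -0.35, adjusted p = 0.224).

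**Figure D1:**
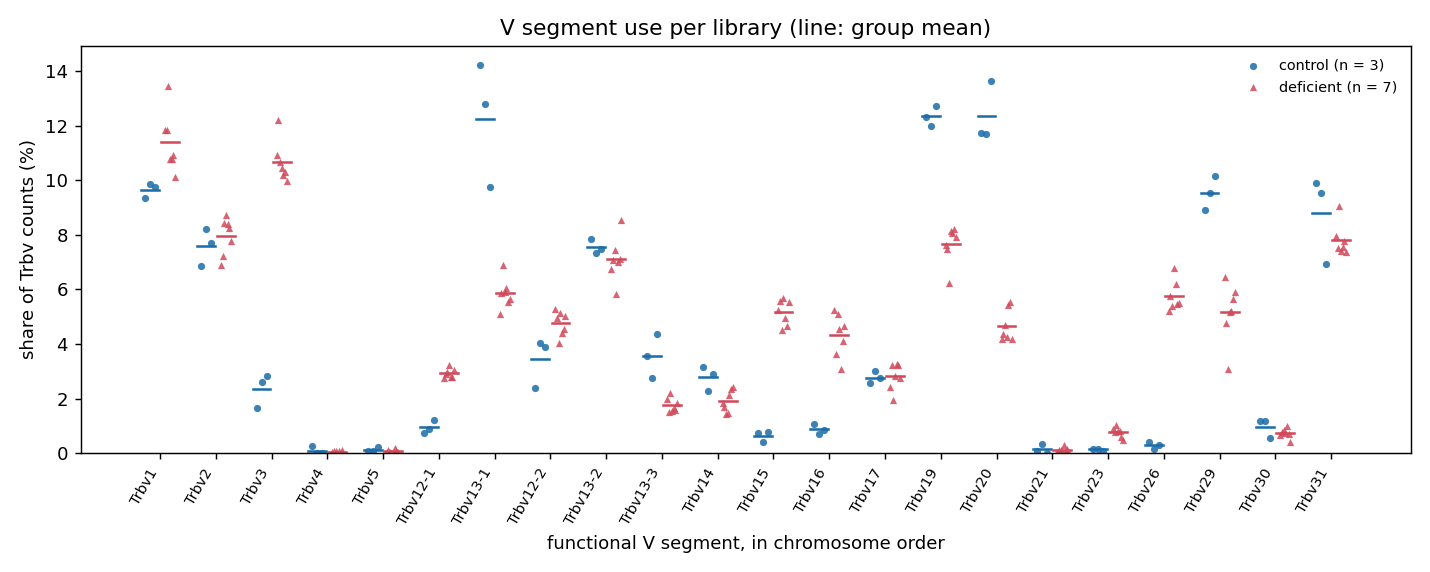
Share of all Trbv counts (percent) for each V segment plotted, with 1 point per library in control (n = 3) and deficient (n = 7) cultures. Trbv26 lies between 5.21% and 6.77% in the deficient libraries and at or below 0.41% in the control libraries, and Trbv20 lies at or above 11.68% in control and at or below 5.54% in deficient libraries.

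The fall of a share depends on what the total holds. With the 6 strongest risers left out of the total, a setting chosen after the data were seen, Trbv20 (log2 -0.97), Trbv13-1 (log2 -0.64), Trbv13-3 (log2 -0.59) and Trbv29 (log2 -0.43) still had a lower share. Trbv19 (log2 -0.25, adjusted p = 0.0602) and Trbv14 (log2 -0.11, adjusted p = 0.659) were not called there. On the level scale, which does not use the Trbv total, Trbv19 was lower (log2 -0.62, SE 0.105, adjusted p = 0.000123), as were Trbv20 (log2 -1.33), Trbv13-1 (log2 -1.02), Trbv13-3 (log2 -0.96) and Trbv29 (log2 -0.81). These 5 were all the V segments with a lower level.

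The remaining tested V segments were not called on the share scale. Trbv1 (Tcrb-V2), the most counted V segment over all libraries, had shares of 9.34%, 9.87% and 9.76% in control and 11.85%, 11.86%, 13.44%, 10.78%, 10.77%, 10.93% and 10.13% in deficient libraries. These do not overlap, but the share change of 0.23 (SE 0.107) had an adjusted p of 0.0797. Its level was called higher (log2 0.29, SE 0.102, adjusted p = 0.0255), and that call was lost within batch 1 (0.30, adjusted p = 0.0637), within batch 2 (0.27, adjusted p = 0.225) and without any 1 control library (adjusted p = 0.0702, 0.0810 and 0.0647) or deficient library 6 (adjusted p = 0.0557). Trbv2 (Tcrb-V4) was at 7.59% ± 0.682 (SD, n = 3) and 7.96% ± 0.680 (SD, n = 7), with a change of 0.07 (SE 0.122). Trbv31 (Tcrb-V14), the inverted segment beyond C2, was at 8.80% ± 1.62 and 7.81% ± 0.594, with a change of -0.18 (SE 0.120). Trbv17 (Tcrb-V9) was at 2.77% ± 0.220 and 2.81% ± 0.498, with a change of 0.04 (SE 0.194). Trbv30 (Tcrb-V18) and Trbv24 (Tcrb-V17), both below 1% in each group, changed by -0.38 (SE 0.296) and -0.05 (SE 0.424), and at this depth a moderate change of either would not be detectable. The annotation lists Trbv24 as a pseudogene and RefSeq lists it as a V segment, whereas Trbv29 is a functional segment in GENCODE and a pseudogene in RefSeq.

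The V mix as a whole separated the groups. The share of Trbv counts that would have to move to turn the mix of 1 library into that of another was 5.90% to 9.53% between control libraries (3 pairs), 2.77% to 9.95% between deficient libraries (21 pairs) and 25.2% to 33.1% across the diets (21 pairs). The 6 risers together made up 4.79%, 4.89% and 6.03% of Trbv counts in control libraries and between 27.9% and 31.5% in deficient libraries, with a median of 29.6%. The 5 fallers together made up 50.7%, 48.8% and 50.6% in control and 25.3%, 24.0%, 23.1%, 25.0%, 26.4%, 26.5% and 25.5% in deficient libraries. Both sets were chosen for their change, so these sums only describe its size.

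Use of the functional V segments was more even in deficient libraries. Evenness (Pielou's index, 1 where all 22 segments have equal counts) was 0.828, 0.828 and 0.833 in control and 0.898, 0.895, 0.889, 0.896, 0.906, 0.900 and 0.902 in deficient libraries. The inverse Simpson number, which is the number of equally used segments that would give the same concentration, was 11.1 ± 0.215 (SD, n = 3) in control and 14.3 ± 0.438 (SD, n = 7) in deficient libraries. Neither measure overlapped between the groups. With the 6 risers left out, a setting chosen after the data were seen that takes out the segments picked for their change, the mean evenness differed by 0.000382 and the inverse Simpson number by -0.0386.

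**Figure D2:**
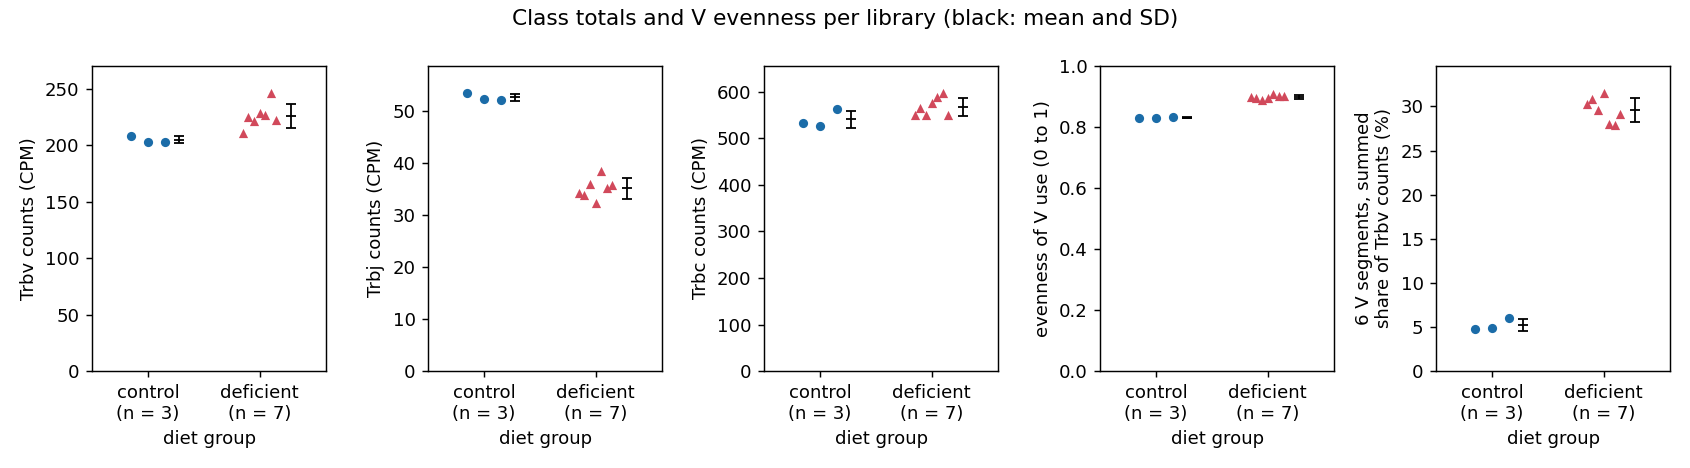
Summed counts of the V, J and C classes in CPM, evenness of V use from 0 to 1, and the summed share (percent of Trbv counts) of the 6 V segments with the largest rise, with 1 point per library and the mean and SD in black. The J totals of the deficient libraries all lie below those of the control libraries, the C totals overlap, and the 6 V segments lie at 27.9% to 31.5% against 4.79% to 6.03%.

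The V class as a whole moved little beside the mix within it. All Trbv rows together were at 209, 203 and 203 CPM in control and 211, 225, 221, 229, 227, 246 and 222 CPM in deficient libraries, or 205 ± 3.23 (SD, n = 3) and 226 ± 10.6 (SD, n = 7). The groups do not overlap, with a ratio of 1.1. With totals scaled by TMM (edgeR's correction for library composition) the difference of the means was 8.16 CPM in place of 20.9.

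The constant segments did not pass the test. Trbc1 (ENSMUSG00000076490, chr6:41538218-41539881) was at 251, 242 and 251 CPM in control and 265, 258, 253, 273, 283, 278 and 256 CPM in deficient libraries (log2 0.02, SE 0.0546, adjusted p = 0.782). Trbc2 (ENSMUSG00000076498, chr6:41546730-41548352) was at 282, 285 and 311 CPM and at 286, 307, 296, 302, 305, 318 and 293 CPM (log2 -0.04, SE 0.0508, adjusted p = 0.500). The raw CPM of Trbc1 do not overlap between the groups, while those of Trbc2 do. Trbc1 took 45.9% ± 1.21 (SD, n = 3) of Trbc counts in control and 47.0% ± 0.945 (SD, n = 7) in deficient libraries, and these shares overlap. The constant segments are 95.6% identical in coding sequence and share 40.5% of the 50-base stretches of Trbc1 and 44.0% of those of Trbc2, so reads from the shared parts may have been dropped or split and the proportion of C1 to C2 is uncertain.

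As a class, the J segments held fewer counts in deficient libraries. All 14 together were at 53.4, 52.4 and 52.1 CPM in control and 34.3, 33.9, 36.0, 32.3, 38.6, 35.3 and 35.8 CPM in deficient libraries. No deficient library reached the control level, and the control mean was 1.5-fold the deficient mean. Of the 14, 0 were called higher and 8 lower (57.1%, beside 28.6% of all genes), 4 in each cluster, with a median log2 change of -0.79. Per Trbc count, the J total was 0.0975 ± 0.00412 (SD, n = 3) in control and 0.0620 ± 0.00368 (SD, n = 7) in deficient libraries, without overlap. The V total per Trbc count, at 0.379 ± 0.0161 and 0.398 ± 0.0106, overlapped. A J row is short (48 bases for Trbj1-1), so reads over a rearranged J can also cover V or C bases, and whether a read across several rows was counted depends on a counting mode that is not given in the sources used here. A total RNA library can also hold reads of unspliced or unrearranged J, and the part of either in the J totals was not tested.

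A stretch of J follows for 3 members, the one whose share rose and 2 whose level fell, since J supplies the last residues of CDR3. The capitals mark the codons of the conserved phenylalanine, glycine, any residue, glycine that end it.
Trbj1-1 (chr6:41533864-41533911): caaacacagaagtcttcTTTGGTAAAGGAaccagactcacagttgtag
Trbj1-5 (chr6:41535084-41535133): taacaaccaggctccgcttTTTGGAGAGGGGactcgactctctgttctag
Trbj2-5 (chr6:41543453-41543501): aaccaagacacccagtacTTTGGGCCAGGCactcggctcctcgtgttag

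Trbj1-5 had the smallest adjusted p of the J segments on the level scale. It was at 6.55, 7.70 and 8.36 CPM in control and 4.10, 3.49, 4.27, 3.83, 5.53, 5.06 and 3.40 CPM in deficient libraries, with no overlap (log2 -0.90, SE 0.189, adjusted p = 0.000800). Trbj1-3, with the largest mean share of the J segments over all 10 libraries, was at 8.10, 6.25 and 7.43 CPM in control and 5.64, 3.11, 4.84, 3.91, 4.17, 4.39 and 5.51 CPM in deficient libraries (log2 -0.77, SE 0.203, adjusted p = 0.00434). Trbj2-7, the most counted J of its cluster, was at 5.86, 4.33 and 4.95 CPM and at 2.01, 2.20, 3.84, 3.52, 3.05, 2.90 and 2.93 CPM (log2 -0.89, SE 0.232, adjusted p = 0.00405). Both of these also kept the groups apart.

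Trbj2-5 had the largest fall of the J segments on the level scale but few counts, with 10, 10 and 7 in control and between 1 and 12 in deficient libraries (log2 -1.37, SE 0.410, adjusted p = 0.0101). Trbj1-6 (log2 -0.89, adjusted p = 0.00431), Trbj1-7 (log2 -1.01, adjusted p = 0.00422), Trbj2-2 (log2 -0.80, adjusted p = 0.0144) and the pseudogene Trbj2-6 (log2 -0.94, adjusted p = 0.00951) also fell. Some of these calls were lost when 1 control library was left out: Trbj1-6 and Trbj2-5 without library 1 (adjusted p = 0.0685 and 0.0535), Trbj1-7 and Trbj2-6 without library 2 (0.0651 and 0.0745), and Trbj2-2 without library 2 or 3 (0.0945 and 0.0557). Within batch 2 alone, Trbj1-3, Trbj1-6, Trbj2-2, Trbj2-6 and Trbj2-7 were not called (adjusted p = 0.0773, 0.426, 0.200, 0.542 and 0.0758), nor was Trbj2-2 within batch 1 (adjusted p = 0.0682). The J segments not called were Trbj1-1 (log2 0.51, SE 0.309), Trbj1-2 (-0.20, SE 0.229), Trbj1-4 (-0.52, SE 0.226), Trbj2-1 (-0.21, SE 0.266), Trbj2-3 (-0.58, SE 0.319) and Trbj2-4 (-0.71, SE 0.555).

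The mix within the J class differed much less than the V mix. As shares of Trbj counts, 1 of 14 segments was called higher and 0 lower. The J total was 310 to 337 counts per control library and 253 to 481 per deficient library. The V totals were larger, so a share change of a given size is more easily missed in J. Scaled to the Trbj total, 73.8% of all genes were called, 66.6% higher and 7.20% lower, since that total itself fell. At an unadjusted p below 0.05 the count was also 1. Trbj1-1 was the segment called: its share was 3.23%, 3.67% and 2.67% in control and 5.41%, 8.05%, 10.28%, 6.30%, 9.36%, 6.54% and 5.57% in deficient libraries, without overlap. The rise was 2.25-fold (log2 1.17, SE 0.298, adjusted p = 0.00173), on 10, 12 and 9 control counts, and in batch 2 alone it was 1.19 (adjusted p = 0.0719). The J1 cluster made up 64.9% ± 1.65 (SD, n = 3) of Trbj counts in control and 67.1% ± 3.52 (SD, n = 7) in deficient libraries, which overlap. The distance of J mixes was 10.17% to 20.04% across the diets (median 15.2%), 12.3% to 16.9% between control libraries (median 12.5%) and 6.19% to 15.9% between deficient libraries (median 12.3%), so these ranges overlap, with the highest distances across the diets.

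The D segments are too short for most reads to fall within them, and they are printed whole, on the plus strand and all in capitals.
Trbd1 (chr6:41533201-41533212): GGGACAGGGGGC
Trbd2 (chr6:41542163-41542176): GGGACTGGGGGGGC
Trbd1 was at 6.61 ± 0.554 CPM (SD, n = 3) in control and 5.89 ± 0.602 CPM (SD, n = 7) in deficient libraries (log2 -0.25, SE 0.161, adjusted p = 0.192). Trbd2 was at 3.09 ± 0.606 and 3.37 ± 0.702 CPM (log2 0.04, SE 0.247, adjusted p = 0.911). Neither passed the test, and the groups overlapped for both.

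**Figure D3:**
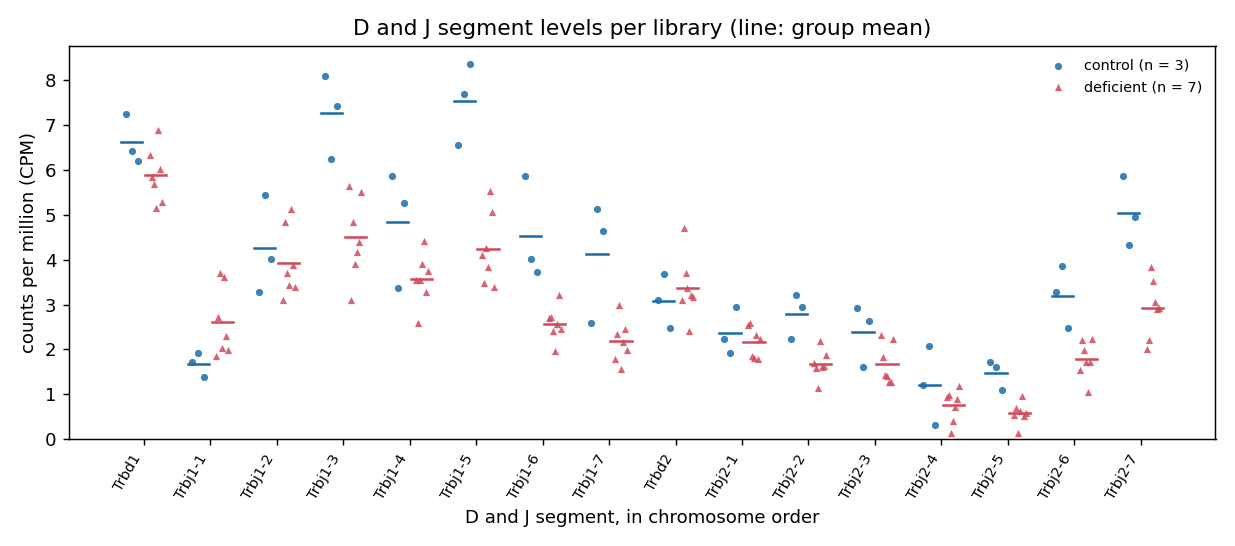
Level (CPM) of each D and J segment in every library, control (n = 3) and deficient (n = 7). Trbj1-5 lies between 6.55 and 8.36 CPM in control and between 3.40 and 5.53 CPM in deficient libraries, while Trbj1-1 and both D segments overlap.

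**Figure D4:**
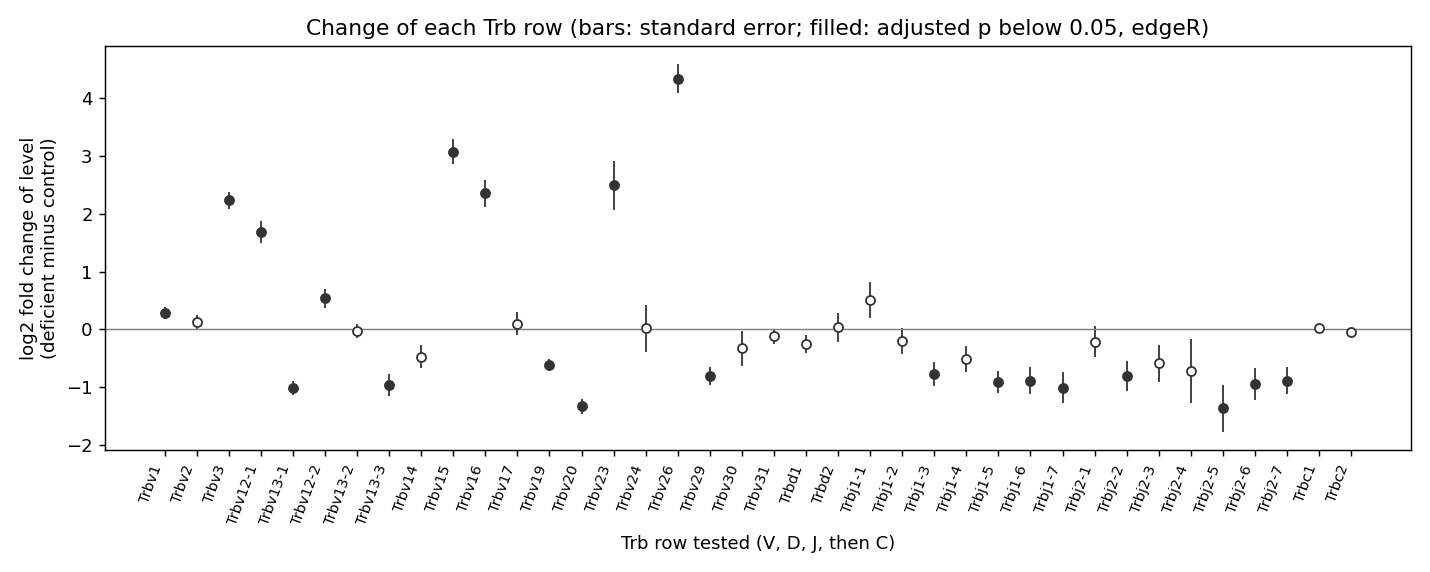
Log2 change in level, deficient against control, of the 38 tested Trb segments in edgeR's fit with batch as a term, with bars for 1 SE. The V segments spread from -1.33 (Trbv20) to 4.34 (Trbv26), the J segments lie below 0 except Trbj1-1, and Trbc1 and Trbc2 lie near 0.

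The V segments below moved in the same direction within each batch. Within batch 1 (2 control and 5 deficient libraries) the share changes were 4.35 for Trbv26, 3.19 for Trbv15, 2.26 for Trbv16, 2.35 for Trbv3, 1.85 for Trbv12-1 and -1.35 for Trbv20. Within batch 2 (1 control and 2 deficient libraries) they were 4.14, 2.72, 2.37, 1.85, 1.25 and -1.47. By edgeR, the term for a diet effect that differs between batches was called for 0 of 38 members on the level scale (2 at an unadjusted p below 0.05) and for 0 of 20 V shares (0 at an unadjusted p below 0.05), beside 0% of all genes.

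Other genes of the receptor did not move as a unit. Of a list of 16 genes of the receptor complex, its coreceptors, the gamma and delta constant segments and the recombination machinery, 12 were tested, with 7 higher and 4 lower, beside 29.4% and 28.6% of all genes. The 7 higher were Cd247 and the CD8 and gamma delta T cell markers given below (Cd8a, Cd8b1, Trdc, Trgc1, Trgc2 and Trgc4). Trac, the alpha chain's constant segment, was lower, at 312 ± 1.98 CPM (SD, n = 3) in control and 236 ± 9.59 CPM (SD, n = 7) in deficient libraries (log2 -0.49, SE 0.0519, adjusted p = 1.07e-06), whereas Trbc1 and Trbc2 were not called. Cd3e, a signalling subunit, was lower (53.8 ± 3.34 and 27.9 ± 2.93 CPM, log2 -1.04), as was Cd3g (log2 -0.28). Cd247, the zeta chain, was higher (130 ± 1.68 and 171 ± 29.7 CPM, log2 0.31, edgeR adjusted p = 0.0424). It was at 136 to 171 CPM in deficient libraries 1 to 4 and at 182 to 213 CPM in libraries 5 to 7. Cd4, the coreceptor of helper cells, was lower, at 723 ± 13.8 and 335 ± 30.9 CPM (log2 -1.20). Rag1, Rag2 and Dntt, which act while the beta chain is assembled in the thymus, and Ptcra had between 1 and 10 counts each over all libraries and were not tested. Among the 188 V and J rows of the alpha chain, 80 were tested, with 13 higher, 24 lower and a median log2 change of -0.48, beside the same 29.4% and 28.6% of all genes.

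Markers of some other cells were higher in the deficient libraries, in which 29.4% of all genes were. The CD8 T cell markers Cd8a and Cd8b1 were both higher, with a sum of 7.59 to 16.4 CPM in control and 28.3 to 155 CPM in deficient libraries. Cd8a was at 5.26 to 10.8 CPM in deficient libraries 1 to 4 and at 35.3 to 54.3 CPM in libraries 5 to 7. In control libraries it was at 0 to 1.55 CPM. Without libraries 5 to 7 the share change was 4.33 for Trbv26, 3.21 for Trbv15, 2.37 for Trbv3, 2.36 for Trbv16, -1.43 for Trbv20 and -1.20 for Trbv13-1, all called, and the part of CD8 T cells in the V mix was not tested. All 4 gamma delta T cell markers were higher, with a sum of 3.97 to 4.33 CPM in control and 19.6 to 34.2 CPM in deficient libraries. Gamma delta T cells use no beta chain at their surface, and their part in the Trb counts was not tested. Of 6 B cell markers 2 were higher (sum 12.5 to 102 CPM and 54.7 to 314 CPM), of 3 dendritic cell markers 1, and of 3 macrophage markers the 1 tested. That macrophage marker, Adgre1, was near the floor, at 0 to 0.481 CPM in control and 0.455 to 1.71 CPM in deficient libraries (edgeR adjusted p = 0.0480). Csf1r and Lyz2 had too few counts to be tested. The numbers of B cell and dendritic cell markers called are close to the share of all genes. All 6 B cell markers had a positive log2 change, from 0.66 to 2.45, but they varied within the groups. The smallest change was that of Ms4a1, which was not called (edgeR adjusted p = 0.586). Ms4a1 was highest in control library 3, at 27.7 CPM, and at 1.62 to 19.5 CPM in deficient libraries. In control libraries 1 and 2 it was at 0.690 and 0.962 CPM. Ighm was at 41.3 to 49.95 CPM in deficient libraries 1 to 4 and at 159 to 179 CPM in libraries 5 to 7. Cd79b was at 8.39 to 16.3 CPM and at 60.1 to 69.8 CPM there. In control libraries 1, 2 and 3, Ighm was at 12.4, 7.86 and 37.9 CPM and Cd79b at 2.07, 2.57 and 19.96 CPM. The 1 tested natural killer T cell marker of 2 was not called. No marker on these lists was at 0 in all libraries.

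Since class II molecules present superantigens, 4 of their genes are given here, chosen after their values were seen. H2-Ea-ps, the annotated pseudogene of the class II E alpha chain, had 0, 1 and 20 counts in the control libraries and 0 in each of the 7 deficient libraries, which allows up to 0.0373 CPM (3 counts over the group). H2-Eb1, the E beta chain, was at 4.59 ± 3.81 CPM (SD, n = 3) in control and 42.5 ± 17.5 CPM (SD, n = 7) in deficient libraries (log2 3.22, SE 0.487, adjusted p = 0.000655). H2-Aa, at 5.13 ± 5.87 and 29.5 ± 27.3 CPM (log2 2.67, SE 1.11, adjusted p = 0.0757), and H2-Ab1, at 30.1 ± 3.43 and 21.3 ± 15.3 CPM (log2 -0.65, SE 0.573), were not called. Both split within the deficient group. H2-Ab1 was at 7.82 to 11.02 CPM in deficient libraries 1 to 4, below every control library (26.9 to 33.7 CPM). In deficient libraries 5 to 7 it was at 34.01 to 39.59 CPM. H2-Aa was at 4.84 to 10.16 CPM in deficient libraries 1 to 4 and at 58.4 to 58.7 CPM in libraries 5 to 7. Its control range was 1.72 to 11.9 CPM. The cause of the split was not tested. The part of these genes in the V mix was not tested.

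The annotation places 28 other genes between the first and the last Trb segment, trypsinogen genes among them, and 12 of them had no count. Only Try5 and Prss2 were tested, and both were higher in deficient libraries (log2 3.78 and 3.37). Their levels were low, at 0.103 and 0.167 CPM in control and 1.72 and 1.79 CPM in deficient libraries. Prss2 was at 0.285 to 0.782 CPM in deficient libraries 1 to 4, which overlaps the control range of 0 to 0.345 CPM. In deficient libraries 5 to 7 it was at 1.84 to 4.57 CPM.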

How the data were processed

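Total RNA of the cultures went into TruSeq Stranded Total RNA Globin libraries, per the labels' protocols. The values deposited by the authors are raw counts, 1 row per Ensembl ID and 1 column for each of 10 libraries. STAR 2.7.10a, HTSeq 0.13.5 and GRCm38 are named in the submitters' processing notes; the strand setting, the overlap mode and the release of the annotation used for counting are not given in the sources here. HTSeq modes can drop reads that span several rows, which bears on V, D and J rows.

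Of 49671 IDs, 49412 matched GENCODE M21 (Ensembl 96, GRCm38), which also gave the sequences, and a RefSeq table gave older names. Counts were tested in R 4.3.3 with edgeR 4.0.16 (filterByExpr with a minimum count of 10, TMM, robust quasi-likelihood fit with diet and batch, all 10 libraries, Benjamini-Hochberg over 13699 genes, threshold 0.05). Share tests used the same fit with the Trbv or Trbj total as library size. DESeq2 1.42.0, other filters and scalings, each batch and leaving out libraries were alternatives. The fits were also run on simulated counts with few changed genes, the same spread for every gene and no batch effect. That check does not bear on the calls in these data. Class totals, evenness and distances were described without a test. The common biological coefficient of variation was 12.7%. Named were the 12 V and 6 J segments of largest mean share and every member called. The members and lists were chosen with earlier results of these data known.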

Additional observations from a re-analysis of the deposited data

Results flagged for a closer look

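Among the 7 deficient libraries, the highest or lowest library was set against the range of the others for 34 values, and 3 stood apart by more than Dixon's critical gap for 7 values; chance flags about 1 in 20. Trbv3 took 12.2% of Trbv counts in deficient library 2, above the other 6, which ran from 9.97% to 10.93%. Trbv19 took 6.24% in deficient library 3, below the others at 7.48% to 8.20%. Trbv31 took 9.07% in the same library 3, above the others at 7.39% to 7.96%. Library 3 had the lowest total of the deficient group, 7029207 counts.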

How the results depend on the processing

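No paired analysis was possible because the labels give no replicate numbers that tie libraries together. For single segments, 1065 recomputed values stayed on their side of the threshold, 36 lost their call, 9 gained one and 23 changed sign; for counts and class values, 191 were alike, 16 moved and 2 changed sign. The cause of these shifts was not tested. Batch 2 alone, with 1 control library, called 5 Trb members higher and 7 lower, in place of 8 and 13, and no J share higher, 0 in place of 1. A minimum count of 50 left 8 members lower and 0 J shares higher, with fewer segments tested. Leaving out 1 library at a time gave 6 to 8 members higher, 11 to 15 lower and 1 to 2 J shares higher (2 without control library 2), and leaving out deficient libraries 1 and 3 gave 2. With the 6 risers out of the total, 11 V shares were higher, in place of 7.

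The difference of the Trbv totals was 20.9 CPM, 31.2 in batch 2 and 8.16 by TMM; that of the Trbj totals was -17.5 and -20.4 by TMM. The difference in evenness was 0.0678, and it was 0.0598 with pseudogenes, 0.0916 with paralogs merged, 0.0772 per exonic base and 0.000382 without the 6 risers. The inverse Simpson difference was 3.23, 4.04 per exonic base and -0.0386 without the 6 risers. The J1 cluster share differed by 2.11 percentage points, and by -0.480 in batch 2.

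Sign changes were all in segments that were not called, apart from Trbj1-6, Trbj1-3, Trbj2-2 and Trbj2-6, called on level only. Trbv13-2 level was 0.0515 by total counts, 0.0756 with no filter and 0.20 in batch 2, and -0.14 to 0.0696 with 1 library left out; its share was 0.0546 in batch 2 and 0.34 without the 6 risers. Trbc2 level was 0.0437 by total counts and 0.0671 with no filter. Trbc1 level was -0.000305 without deficient libraries 5 to 7 and -0.00576 to 0.0561 with 1 library left out. Trbv31 level was 0.29 in batch 2, and its share 0.13 there and 0.25 without the 6 risers. Trbj shares in batch 2 were -0.0426 for Trbj1-4, 0.19 for Trbj1-6 and 0.19 for Trbj2-6. With 1 library left out, level ran from -0.37 to 0.00133 for Trbj1-2, and share from -0.00163 to 0.14 for Trbv2, -0.19 to 0.00698 for Trbj1-3, -0.0670 to 0.33 for Trbj1-4, -0.39 to 0.0199 for Trbj1-6 and -0.28 to 0.00714 for Trbj2-2. Depth limits what can be said of Trbv23, Trbv24, Trbj2-4 and Trbj2-5, which have few control counts.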
